A study of Mus musculus with 55 samples.

Results

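IL-219 is a recombinant inbred mouse line of the Collaborative Cross (CC), and the total expression of its liver was compared with that of the other CC lines of the series. The 2 IL-219 mice, numbered 4235 and 4236, were taken by their strain label from 55 mice, and the 53 mice of the other 28 lines formed the comparison. Both IL-219 mice were males of 9.1 weeks with body weights of 21.7 and 18.5 g, whereas the others were between 8 and 11.9 weeks old and weighed between 12.8 and 38 g. All mice were kept on chow and water without treatment, and each line carries its own mosaic of founder genomes. Of the 29 lines, 8 had 1 mouse, 16 had 2 and 5 had 3. The labels state neither the cage nor the litter of a mouse, so line mates may be alike partly through a shared environment. The spread between line mates may then be too small for comparing lines. A difference between lines cannot be told apart from one between cages or litters.

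The CC panel descends from 8 founder strains, and each line fixes one founder haplotype at most loci. Line mates are therefore near replicates of one genotype. A line can stand apart in expression where it carries an uncommon allele or an uncommon physiological state, among other reasons, and these were not tested here. In rodent liver many cytochrome P450 genes, sulfotransferases and major urinary proteins follow the pattern of growth hormone release, which is pulsatile in males and nearly continuous in females. Liver also sets its lipid and cholesterol synthesis by feeding, and its acute phase proteins by inflammation.

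Libraries of IL-219 held 21.7 and 21.4 M estimated fragments, the fourth lowest and the second lowest of the series, and the others between 20.5 and 34 M with a median of 28.2 M. The 2 mice resembled each other, with a Spearman correlation of 0.983 over 11284 genes, against 0.926 to 0.992 for 30 pairs of line mates elsewhere. No mouse of another line exceeded 0.939 with either of them. The Y-linked gene Ddx3y was at 14.5 and 14.4 FPKM, within the 5.49 to 19.0 FPKM of the other mice, and Xist, the RNA of the inactive X chromosome, was not above 0.12 FPKM in any mouse except 1 IL-785 mouse with 39.5 FPKM. The mice of IL-1052 and IL-2750 were intermixed in expression, and their labels were kept as given. The counts of the range rule and of the mouse-level test were repeated without the IL-785 mouse and without IL-1052 and IL-2750, and differed by less than 1.5 times. FPKM are fragments per kilobase of a gene and per 1000000 mapped fragments.

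A gene was called outside the range where both IL-219 mice lay above, or both below, every one of the 53 other mice. Among the 11284 genes with an FPKM of at least 2 in some mouse, 73 genes (0.647%) were above and 33 genes (0.292%) were below. Such a count depends on how many mice and lines are compared, and the same rule was therefore applied to every line with 2 mice. IL-219 ranked 9 among these 16 lines, with 106 genes against a median of 108 and a range of 2 to 943 in the other 15. The lowest count, 2, was that of IL-1052, whose mice were intermixed with those of IL-2750. The 73 genes above in IL-219 equalled the median of the other lines, and its 33 genes below were more than their median of 21. The number of outlying genes was thus not unusual for a CC line.

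**Figure D1:**
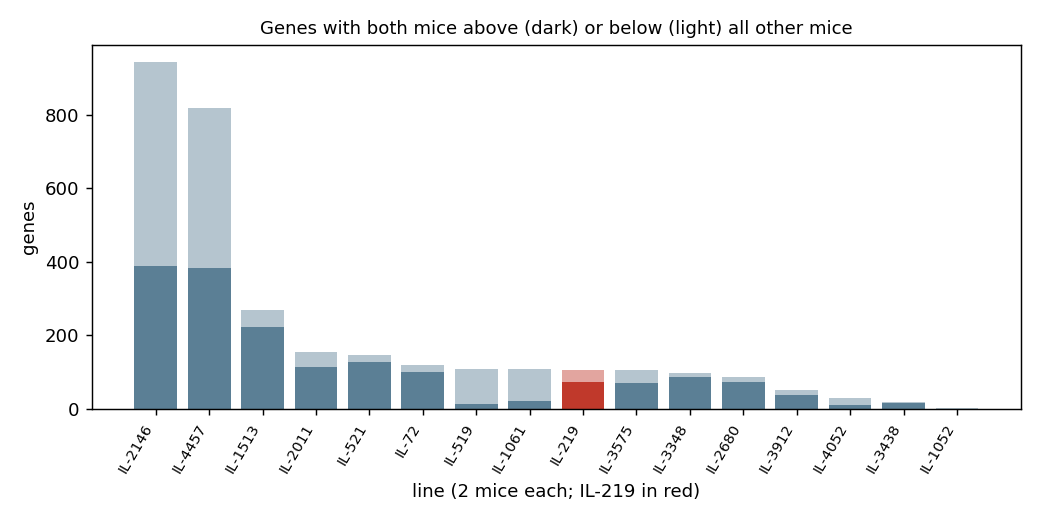
Number of genes (vertical axis) with both mice above (dark) or below (light) all mice of other lines, for each of the 16 lines with 2 mice (horizontal axis, IL-219 in red). IL-219 has 106 such genes, close to the median of 108 of the other lines.

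Margins were small for most of these genes. After adding 0.5 FPKM, 19 of the 73 genes above and 6 of the 33 below were beyond the nearest other mouse by a factor of at least 1.2. Slc17a8, a vesicular glutamate transporter gene, was just outside at 14.7 and 13.6 FPKM against 13.6 FPKM (ratio on this scale 1.0007), whereas Hcn3, an ion channel gene, was just inside at 5.30 and 6.14 FPKM against 5.31. Below the range, Tmem147 was just outside at 33.7 and 34.8 FPKM against 34.9 FPKM, and 0610005C13Rik just inside at 38.8 and 38.6 FPKM against 38.4 FPKM. The split also depended on scaling, with 73 above and 19 below in TPM and 46 above and 49 below in counts scaled by TMM. In all 3 units, 55 of the 106 genes were outside the range, 36 above and 19 below. Of the 106 genes, 8 passed the expression filter only through IL-219. The nearest other mouse was most often one of IL-2680, for 15 genes.

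**Figure D2:**
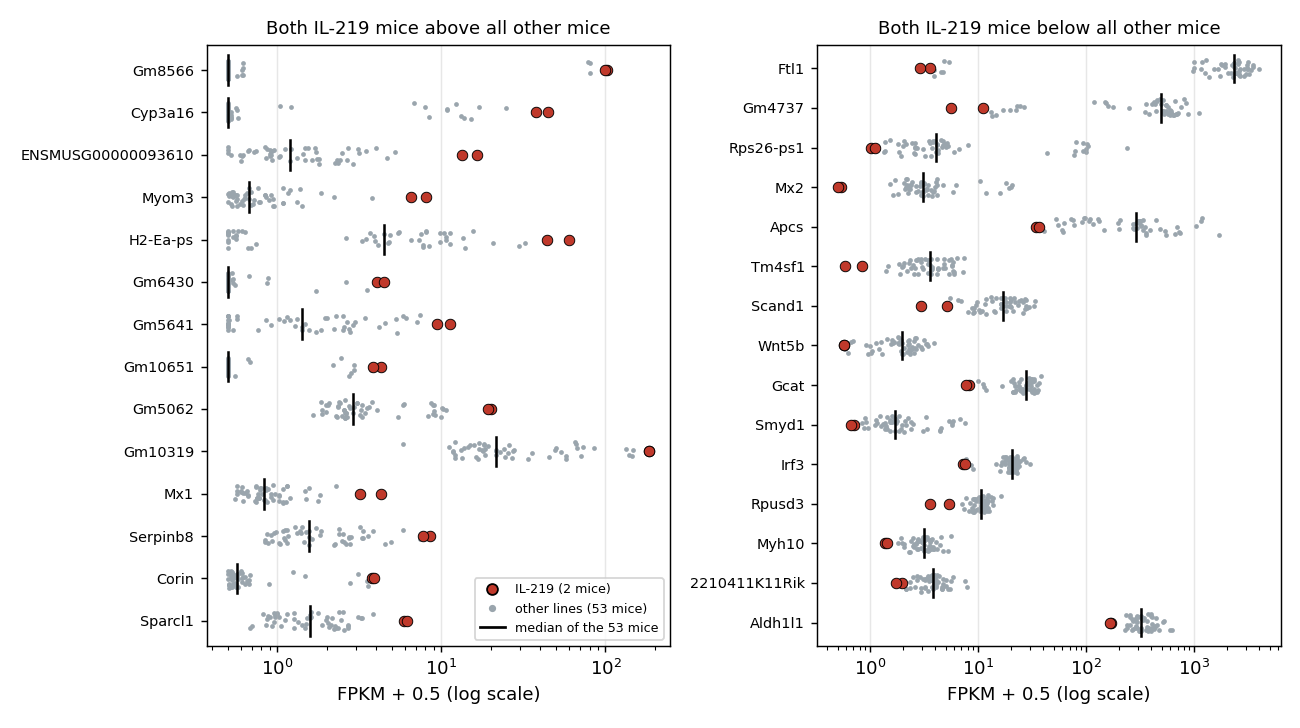
FPKM + 0.5 on a log scale for 14 of the 15 genes above (left) and the 15 genes below (right) the range with the largest log2 ratios. Red points are the 2 IL-219 mice, grey points the 53 other mice and the black bar their median; Ftl1 lies near 3 FPKM in IL-219 and near 2329 FPKM at the median of the others.

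The gene with the largest ratio was Ftl1, which encodes the ferritin light chain, the subunit of the iron storage shell that favours mineral formation (chromosome 7, 52713314 to 52715254, mm9). Its expression was 3.06 and 2.41 FPKM in IL-219, against a lowest value of 3.39, a median of 2329 and a highest value of 4002 FPKM in the others. Both IL-219 mice were below every other mouse, although 6 other mice were nearly as low. Ftl1 has near-identical copies in the mm9 genome, and RSEM divides a fragment that matches several genes among them. One copy is Gm10116 (chromosome 13, 74543844 to 74544765) and another is Ftl2, annotated as a pseudogene (chromosome 4, 125181532 to 125182083). Over 549 coding bases of Ftl1, Gm10116 differed at 2 positions and Ftl2 at 7. The stretch with both differences of Gm10116 is shown because so few bases separate the genes, as spliced coding positions 415 to 504 counted from 1 at the start codon of Ftl1, with bases that differ from Ftl1 in capitals (NCBI build 37, strand of the gene):
Ftl1: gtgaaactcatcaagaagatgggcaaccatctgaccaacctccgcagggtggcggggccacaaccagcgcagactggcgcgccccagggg
Gm10116: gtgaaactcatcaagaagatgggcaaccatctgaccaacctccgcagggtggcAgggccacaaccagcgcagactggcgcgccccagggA
Ftl2: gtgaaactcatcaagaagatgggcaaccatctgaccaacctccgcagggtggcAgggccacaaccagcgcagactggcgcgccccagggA

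Both copies carry G468A and G504A, with the Ftl1 base first and positions counted as above. In IL-219, Gm10116 was at 2129 and 2200 FPKM and Ftl2 at 464 and 454 FPKM, whereas the medians of the other mice were 0.17 and 0 FPKM. Summed over Ftl1 and its 4 copies, fragments came to 2043 and 2121 CPM, that is counts scaled to 1000000 fragments, in IL-219, within the 1430 to 3720 CPM of the other mice (median 2290 CPM). The summed level of Ftl1 and its copies was thus inside the range, unlike that of Ftl1 alone. Ftl1 took under 1% of this sum in 6 other mice, namely both mice of IL-3575, the 3 mice of IL-785 and 1 of the 2 mice of IL-2146, and at least 48.5% in all remaining mice. Fth1, the ferritin heavy chain gene, was at 1160 and 1020 FPKM in IL-219 against 965 to 1640 FPKM.

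**Figure D3:**
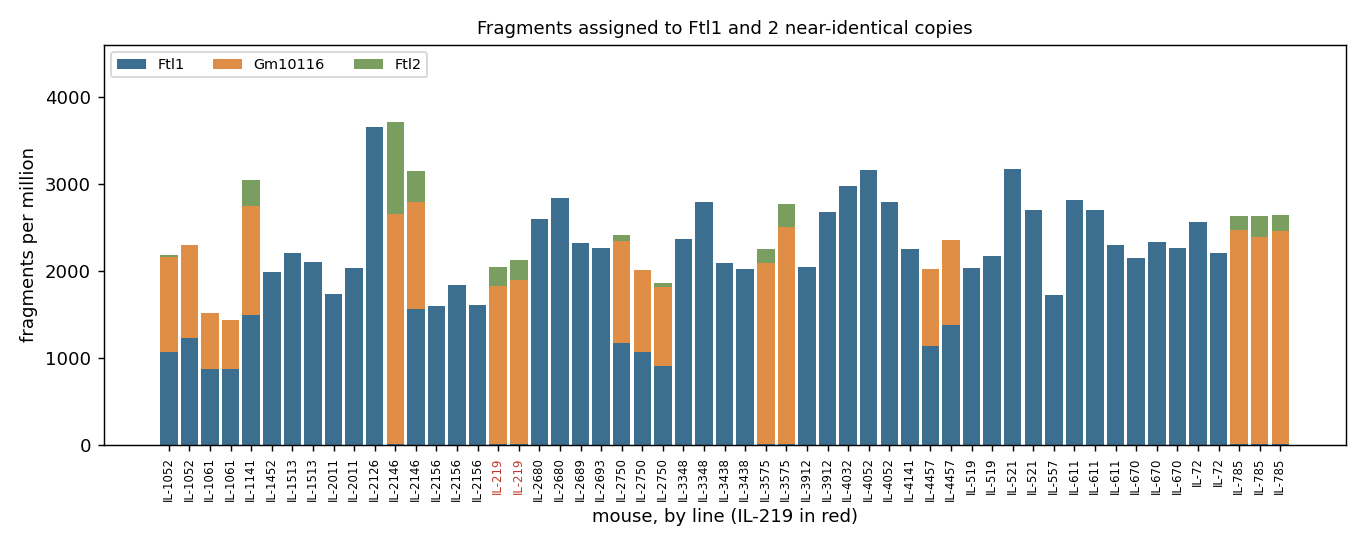
CPM (vertical axis) assigned to Ftl1 (blue), Gm10116 (orange) and Ftl2 (green) in each of the 55 mice, ordered by line (horizontal axis, IL-219 in red). In the 2 IL-219 bars nearly all fragments are assigned to the copies, while the summed heights of 2043 and 2121 lie among those of the other mice.

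Of the 106 genes, 17 had another gene with at least 95% identity over at least 200 bases of transcript, and 105 could be searched. Summed with the copies, 15 of the 17 were inside the range, and Mapkapk5 and Srp54b were still above. The largest such case above the range was Gm8566, a pseudogene similar to the superoxide dismutase gene Sod1, at 102 and 98.2 FPKM against a median of 0 and a highest value of 80.2 FPKM; the sum with Sod1 was 750 and 727 CPM, within 402 to 881. Gm4737, a copy of the S-adenosylhomocysteine hydrolase gene Ahcy, was below the range at 5.15 and 10.51 FPKM against 12.7 to 1107 FPKM. Ahcy itself was at 484 and 473 FPKM against a median of 30.7 FPKM, and the summed level was 1210 and 1190 CPM, near the median of 1230. The same held for Rps26-ps1 with Rps26, Gm6430, Gm5641, Gm7887, Gm10651 and Gm10319, whose single values are uncertain. With these genes judged on the sum, 91 genes were outside the range, 63 above and 28 below. A sum follows its most abundant gene, so it cannot decide on a minor member. Gm8566 alone was at 59.7 and 58.5 CPM of its sum. 1700019G17Rik was at 17.5 and 17.2 CPM alone and at 478 and 425 CPM with Cml2. It shares 326 of 3019 transcript bases with Cml2 and was above the range in FPKM, TPM and TMM-scaled counts, but the 91 genes leave it out.

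Among genes without a near-identical copy, the P450 gene Cyp3a16 was the furthest above. It encodes a member of the Cyp3a drug-metabolizing family (chromosome 5) and was at 37.3 and 44.0 FPKM in IL-219. The other mice lay between 0 and 24.4 FPKM with a median of 0, and the next highest line was IL-519 at 20.4 FPKM. The log2 ratio of the IL-219 mean to the mean of the 28 line means, both with 0.5 FPKM added, was 3.72. Its neighbours in the family, Cyp3a44 and Cyp3a41a, followed with 39.9 and 30.8 FPKM and with 259 and 149 FPKM. Their medians elsewhere were 1.03 and 0.6 FPKM, and 1 other mouse, of IL-2680, exceeded both IL-219 mice in Cyp3a44 with 41.9 FPKM. In Cyp3a41a, 2 other mice were at or above the lower IL-219 mouse, the highest at 1549 FPKM. Cyp3a41a shares 99.7% of its bases with Cyp3a41b and its value rests on how fragments were divided, but the sum of both, 259 and 150 FPKM, was close to that of Cyp3a41a alone.

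The promoters of these genes are much alike, with 94.9% identity between Cyp3a16 and Cyp3a41a, 95.9% between Cyp3a16 and Cyp3a44 and 94.3% between Cyp3a41a and Cyp3a44 over 300 bases. The 100 bases before each gene start are shown because the 3 genes were high together (RefSeq, GRCm38.p6, minus strand, 5′ to 3′; Cyp3a16 chr5:145469724-145469823, Cyp3a41a chr5:145720137-145720236, Cyp3a44 chr5:145805875-145805974), with the letters CATATAAG, which hold a TATA-like stretch, in capitals:
Cyp3a16: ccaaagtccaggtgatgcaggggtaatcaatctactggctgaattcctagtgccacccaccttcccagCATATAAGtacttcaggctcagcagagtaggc
Cyp3a41a: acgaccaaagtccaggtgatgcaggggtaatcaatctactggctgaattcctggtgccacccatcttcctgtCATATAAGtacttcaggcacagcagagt
Cyp3a44: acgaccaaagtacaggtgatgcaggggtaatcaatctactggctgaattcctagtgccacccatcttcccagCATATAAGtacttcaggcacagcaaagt
The letters were found on either strand in 0.484% of 32851 promoters of 300 bases, from 250 before to 50 after the start. These are reference sequences, and the sequence of IL-219 was not read. Promoters so alike share most stretches, and the part of the marked letters in expression was not tested.

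Beyond the range rule, genes were tested by edgeR in 2 ways, which differ in the spread they use. With the counts of each line summed and IL-219 set against the spread among the other 28 lines, edgeR's quasi-likelihood test called 0 of 11284 genes (0.0%) at an adjusted p-value of 0.05, with 306 genes at an unadjusted p under 0.05. DESeq2 on the same line sums called 82 genes, 81 of them lower. A fit of limma voom on single mice, with line as a block, called 95 genes, 87 of them higher. The count thus rests on the tool and, for limma voom, also on the unit. With IL-219 against the mean of the 28 lines and the spread among mice of the same line, edgeR called 1028 genes higher (9.11%) and 773 lower (6.85%). The second test says that IL-219 differed from the average line, not that it differed more than lines differ among themselves. The second test gives the calls for the gene lists below, and a list is read against 9.11% and 6.85%. With only 1 IL-219 mouse in the fit, it called 541 or 565 genes. The shares of 9.11% and 6.85% hold for edgeR with both IL-219 mice. List counts with 1 IL-219 mouse are not read against them, since far fewer genes were called in those fits. DESeq2 at the mouse level called 929 of 11284 genes lower, and its list counts are read against that. The median log2 ratio of a list is read against the median of 0.02 of all genes.

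Female-biased genes of the growth hormone axis were the list with the largest share called higher among the lists of liver functions. Of 32 tested members, 18 (56.2%) were higher and 0 lower, with a median log2 ratio of 0.26, and 12 or 15 were higher with only 1 IL-219 mouse in the fit. Summed over the list, expression was 1150 and 1130 FPKM in IL-219, against a range of 70.5 to 2190 FPKM and a median of 230 FPKM. Only 3 other mice reached the level of the lower IL-219 mouse. They were mouse 4238 of IL-2680 (2190 FPKM), 4234 of IL-2126 (1410 FPKM) and 4319 of IL-1452 (1260 FPKM). The line mate of mouse 4238, mouse 4239, was at 290 FPKM. Mice 4234 and 4238 are close in number to the IL-219 mice 4235 and 4236. Whether the pattern goes with mouse number was not tested. Of the list, 23 and 19 members were at 2 FPKM or more in the IL-219 mice, against a median of 10 and a highest count of 22 in others.

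Cyp2a4, a steroid hydroxylase gene of female liver, was at 400 and 572 FPKM in IL-219 against 0 to 723 FPKM with a median of 0.45 FPKM. Its neighbour Cyp2a5 is 98.2% identical, and the summed level of 624 and 916 FPKM was reached by 2 other mice. Cyp2b9, another female-predominant P450 gene, was at 106 and 70.4 FPKM against 0 to 170 FPKM (median 0.370). High values of both were thus rare but not confined to IL-219. Ntrk2, a neurotrophin receptor gene, was at 6.34 and 4.77 FPKM against a median of 0.09 and a highest value of 10.9 FPKM. The 2 IL-219 mice differed from each other in part of the list. Sult3a1, a sulfotransferase gene, was at 5.86 FPKM in one and 0.18 FPKM in the other. It was called higher on the log scale of edgeR (adjusted p = 0.0113), while the ratio to the mean of the line means was negative (log2 ratio -2.0), as a few other mice were far higher.

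Of 47 tested male-biased genes of the same axis, 7 (14.9%) were lower and 3 (6.38%) higher, with a median log2 ratio of -0.75. With only 1 IL-219 mouse, 2 were lower and 0 higher, and DESeq2 called 14 lower. Cyp7b1, an oxysterol hydroxylase gene, was at 26.4 and 45.7 FPKM against 16.5 to 577 FPKM with a median of 193 FPKM (edgeR log2 fold change -2.34 ± 0.59, SE; adjusted p = 0.00643). Cyp4a12b, a fatty acid hydroxylase gene, was at 4.75 and 3.73 FPKM against a median of 31.8 FPKM (-2.97 ± 0.65; adjusted p = 0.00189). Its near-identical neighbour Cyp4a12a was also lower, and their sum of 135 and 116 FPKM lay near the lower end of 69.3 to 582 FPKM. Mup7 and Mup10, genes of major urinary proteins, went in opposite directions, with 1062 and 1210 FPKM against a median of 26750 for Mup7 and 23460 and 23920 FPKM against a median of 10410 for Mup10. Both have near-identical copies in the family and their single values are uncertain. The same holds for other Mup genes of the list, so its counts and median rest partly on how fragments were divided. Mup13 was at 3.36 and 1.39 FPKM and Mup15 was listed at 0 in both IL-219 mice. Summed over 21 Mup genes, IL-219 had 134000 and 132000 FPKM, inside 29500 to 341000 FPKM and below the median of 181000 FPKM. The growth hormone receptor gene Ghr, at 216 and 200 FPKM, and Stat5b, which encodes a transcription factor that mediates its signal, at 12.0 and 9.94 FPKM, were near the medians of 198 and 9.23 FPKM.

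**Figure D4:**
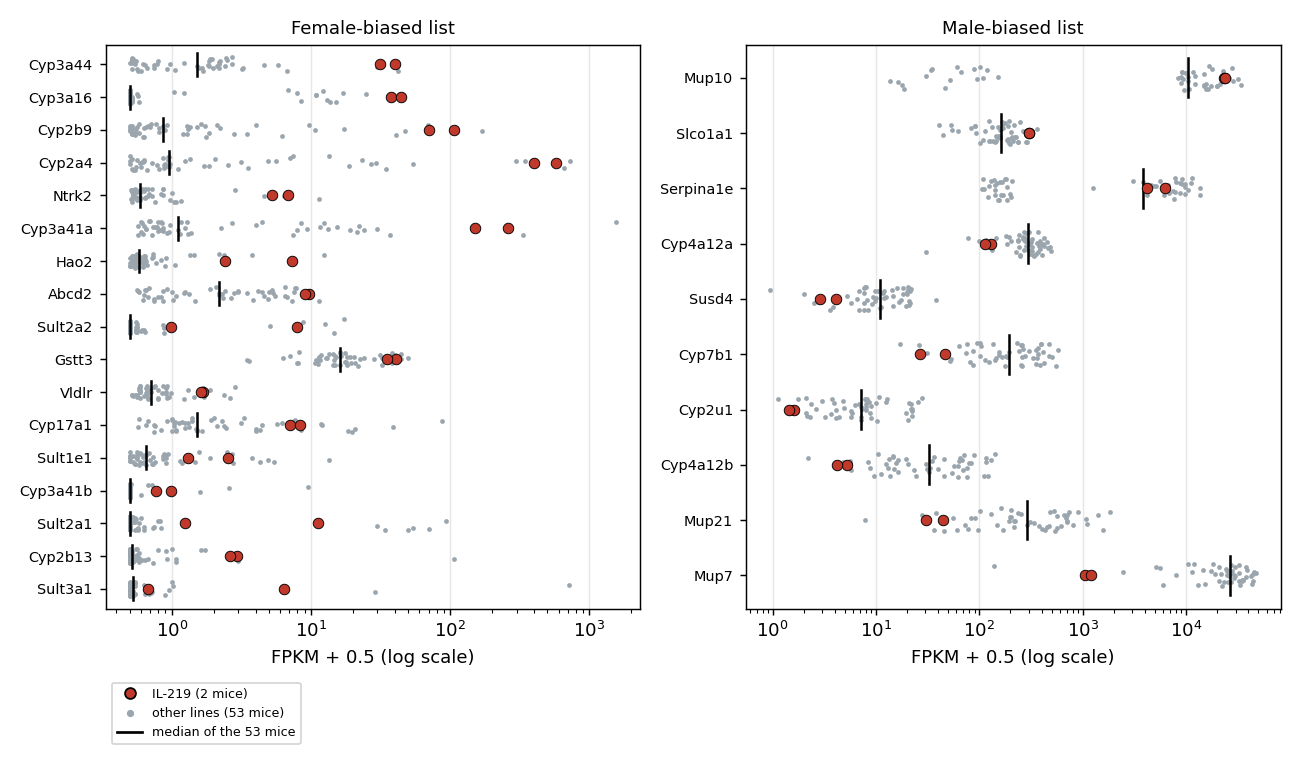
FPKM + 0.5 on a log scale for 17 of the 18 members called by edgeR in the female-biased list (left) and those called in the male-biased list (right). Red points are the 2 IL-219 mice, grey points the 53 other mice and the black bar their median; Cyp3a44 and Cyp3a16 head the left panel and Mup7 is lowest relative to the others in the right.

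Cytochrome P450 genes, which oxidize drugs, steroids and fatty acids, were more often higher than lower. The list shares members with the female-biased list, among them Cyp3a16, Cyp3a41a, Cyp3a44, Cyp2a4 and Cyp2b9. Calls of shared members count in both lists, so the shares of the lists are not separate results. Of 59 tested genes, 22 (37.3%) were higher and 6 (10.2%) lower, and 15 or 16 were higher with 1 IL-219 mouse in the fit. Summed expression was 16000 and 17100 FPKM, against 7610 to 16600 FPKM and a median of 12000 FPKM. The main drug-metabolizing gene Cyp3a11 was at 3156 and 3341 FPKM against 412 to 3889 FPKM with a median of 1300 FPKM (log2 fold change 1.16 ± 0.21; adjusted p = 0.000219). Cyp2c29, of the Cyp2c family, was at 2170 and 2342 FPKM against a median of 1192 FPKM (1.12 ± 0.20; adjusted p = 0.000208). Cyp2d11 and Cyp2d12, of the Cyp2d cluster of chromosome 15, were at 31.8 and 44.4 FPKM and at 31.4 and 39.4 FPKM. Their medians in the other mice were 0.21 and 0.61 FPKM and their highest values 44.5 and 41.6 FPKM. Cyp2d26, of the same cluster and abundant in every mouse, was above the range at 528 and 500 FPKM against 242 to 498 FPKM, but neither in TPM nor in TMM-scaled counts. The lowest P450 gene by ratio was Cyp3a59, at 0.22 and 0.23 FPKM against a median of 13.45 FPKM. It is 97.0% identical to Cyp3a25, and their sum, 522 and 491 FPKM, was inside 170 to 1760 FPKM. Cyp39a1, an oxysterol hydroxylase gene of bile acid synthesis, was at 0.24 and 0.13 FPKM against 0.07 to 19.8 FPKM (adjusted p = 0.000146).

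Other enzymes of drug disposition were divided. Of 57 further functionalization enzymes, 8 (14.0%) were higher and 7 (12.3%) lower, or 1 to 3 and 2 to 4 with only 1 IL-219 mouse in the fit. Of 58 conjugation enzymes, 13 (22.4%) were higher and 7 (12.1%) lower, or 6 to 7 and 2 with 1 mouse. Aldh1a1, which oxidizes retinal, was above the range at 1110 and 994 FPKM against 304 to 937 FPKM, but not in TMM-scaled counts. Aldh1l1, a folate enzyme that releases carbon dioxide from formyltetrahydrofolate, was below it at 169 and 165 FPKM against 227 to 622 FPKM. Akr1c19, an aldo-keto reductase gene, was at 11.5 and 9.07 FPKM against a median of 38.8 FPKM (-2.01 ± 0.30; adjusted p = 1.49e-05). Gstm3, a glutathione transferase gene, was at 113 and 174 FPKM against a median of 42.1 FPKM (2.91 ± 0.65; adjusted p = 0.00239). In the carboxylesterase gene Ces2h, 0.39 and 0.09 FPKM against a median of 0.16 and a highest value of 56.3 FPKM gave a ratio set by the highest mice, and the test did not call it. The glycosyltransferase gene Ugt2b38, at 1.59 and 1.83 FPKM against a median of 9.56 FPKM, and Nnmt, at 2.71 and 2.89 FPKM against a median of 7.92 FPKM, were not called either. Of 34 transporters, 4 (11.8%) were higher and 2 (5.88%) lower, none of them with 1 IL-219 mouse, and the largest ratios, in Slc22a26 and Slc22a28, did not pass the test. Of the 40 drug disposition genes that the study chose on these same mice, 13 (32.5%) were higher and 5 (12.5%) lower, which is not independent evidence of a direction; with 1 IL-219 mouse, 8 were higher and 1 or 3 lower.

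Genes of fatty acid synthesis and lipid storage were more often called higher than lower. Of 38 tested genes, 11 (28.9%) were higher and 1 (2.63%) lower, with a median log2 ratio of 0.27, and 5 or 4 were higher with only 1 IL-219 mouse. Pklr, the liver pyruvate kinase gene, was at 131 and 128 FPKM against 17.4 to 132 FPKM (1.33 ± 0.27; adjusted p = 0.000924). Elovl6, a fatty acid elongase gene, was at 23.2 and 21.5 FPKM against a median of 9.15 FPKM (1.06 ± 0.29; adjusted p = 0.0102). Me1, which makes NADPH for lipid synthesis, was at 114 and 97.1 FPKM against a median of 53.6 FPKM (0.89 ± 0.24; adjusted p = 0.00979). Fasn, the fatty acid synthase gene, was at 113 and 93.2 FPKM against a median of 63.2 FPKM, with a higher mouse elsewhere at 177 FPKM (0.96 ± 0.33; adjusted p = 0.0464). Pnpla3, a lipid droplet acylhydrolase gene, was at 5.2 and 2.95 FPKM against a median of 0.17 and a highest value of 16.1 FPKM (adjusted p = 1.68e-07). Gbe1, the glycogen branching enzyme gene, was above the range at 78.9 and 71.5 FPKM against 19.3 to 68.7 FPKM, but not in TMM-scaled counts.

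Genes of lipid export and amino acid use were among those outside or far from the median. Mttp, which loads lipid onto apolipoprotein B, was above the range at 102 and 91.3 FPKM against 52.1 to 87.3 FPKM. Apoa4, an apolipoprotein gene of triglyceride-rich particles, was at 1700 and 1342 FPKM against 29.3 to 2162 FPKM with a median of 163 FPKM (2.87 ± 0.36; adjusted p = 7.81e-07), and Apol9b, which is 98.4% identical to Apol9a, was at 3.70 and 1.60 FPKM against a median of 43.9 FPKM (-3.85 ± 0.70; adjusted p = 0.000253). The list of 22 apolipoproteins and related genes held 3 higher (13.6%) and 3 lower (13.6%), and 1 or 2 higher and 1 lower with 1 IL-219 mouse. Glud1, the mitochondrial glutamate dehydrogenase gene, was above the range at 545 and 544 FPKM against 231 to 474 FPKM. Of 48 genes of amino acid catabolism, urea cycle and gluconeogenesis, 5 (10.4%) were higher and 4 (8.33%) lower, close to the shares of all genes, and 1 or 2 higher and 1 lower with 1 IL-219 mouse. The largest ratio among them, in Ahcy, is bound to its copy Gm4737, and Csad, an enzyme gene of taurine synthesis, was at 109 and 114 FPKM against a median of 44.97 FPKM (1.27 ± 0.31; adjusted p = 0.00515). Of 37 fatty acid oxidation and ketogenesis genes, 2 (5.41%) were higher and 1 (2.70%) lower, and 0 or 1 higher with 1 IL-219 mouse. The hormone gene Fgf21 was one of the higher, at 13.4 and 4.67 FPKM against a median of 1.19 FPKM, whereas Cyp4a14, at 11.1 and 5.74 FPKM against a median of 1.98 and a highest value of 582 FPKM, was not called and had a negative log2 ratio of -2.71.

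Cholesterol synthesis genes were lower as far as they were called. Of 26 tested genes of cholesterol synthesis and uptake, 6 (23.1%) were lower and 0 higher, with a median log2 ratio of -0.56. With only 1 IL-219 mouse in the fit, 0 of them were called lower, whereas DESeq2 called 10 lower. Sc4mol, a sterol demethylation enzyme gene, was at 48.2 and 56.4 FPKM against 33.5 to 277 FPKM with a median of 126.5 FPKM (-1.14 ± 0.35; adjusted p = 0.0231). Cyp51, the lanosterol demethylase gene, was at 23.9 and 24.9 FPKM against a median of 46.5 FPKM (-0.86 ± 0.28; adjusted p = 0.0324), and Hsd17b7 was at 9.38 and 9.55 FPKM against a median of 15.9 FPKM (-0.90 ± 0.23; adjusted p = 0.00668). Of 25 bile acid genes, 4 (16.0%) were lower and 2 (8.00%) higher, and 1 lower with 1 IL-219 mouse.

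Acute phase proteins, which the liver secretes in inflammation, were called only in the lower direction. The summed level of the list was 21100 and 21300 FPKM in IL-219 against 14800 to 173000 FPKM with a median of 27000 FPKM. Of 35 tested genes, 6 (17.1%) were lower and 0 higher, with a median log2 ratio of -0.99, and 3 were lower with either IL-219 mouse alone and 10 by DESeq2. Apcs, the serum amyloid P gene, was below the range at 33.9 and 36.3 FPKM against 37.0 to 1693 FPKM with a median of 285 FPKM, but not in TPM. Saa4, a constitutive serum amyloid A gene, was at 42.1 and 41.4 FPKM against a median of 146 FPKM (-1.89 ± 0.28; adjusted p = 1.74e-05). The inflammation-induced gene Saa1 was at 10.7 and 9.24 FPKM against 3.31 to 38300 FPKM with a median of 197 FPKM (-5.02 ± 1.73; adjusted p = 0.0451), and Saa2, at 13.7 and 11.7 FPKM against a median of 71.4 FPKM, was not called. Of 38 immediate early, heat shock and endoplasmic reticulum stress genes, 6 (15.8%) were lower, or 1 to 2 with 1 IL-219 mouse, and 1 (2.63%) higher. Their summed level was 2820 and 2970 FPKM against a median of 2360 FPKM. The immediate early gene Egr1 was at 0.7 and 0.56 FPKM against 0.22 to 215 FPKM with a median of 2.40 FPKM (-3.06 ± 1.01; adjusted p = 0.0359), and Fos, at 0.18 and 0.14 FPKM against a median of 0.37 FPKM, was not called. The labels do not give the time of dissection. Of 18 circadian clock genes, 1 (5.56%) was higher and 2 (11.1%) lower, and 0 with 1 IL-219 mouse. Nr1d1, a clock repressor gene with a strong daily rhythm, was at 12.5 and 13.3 FPKM against a median of 26.1 FPKM (-1.02 ± 0.29; adjusted p = 0.0168), and Dbp, at 8.36 and 15.6 FPKM against a median of 27.9 FPKM, was not called. The 51 complement and coagulation genes held 7 higher (13.7%) and 7 lower (13.7%), and Cfhr3, a complement factor H related gene, at 0.3 and 0.1 FPKM against a median of 2.32 FPKM, had the largest ratio. C6, of the membrane attack complex, was at 46.4 and 64.7 FPKM against a median of 104 FPKM and was not called. With either IL-219 mouse alone in the fit, 1 was higher and 2 lower.

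The neighbouring interferon-induced genes of chromosome 16 Mx1 and Mx2 lay on opposite sides of the range. Both encode dynamin-like GTPases that act against viruses. Mx1 (97668642 to 97684514, mm9) was above it at 3.77 and 2.67 FPKM, against 0.05 to 1.78 FPKM with a median of 0.33 FPKM, and it passed the filter of 2 FPKM only through IL-219. Mx2 (97757690 to 97782506) was below it at 0.04 and 0.01 FPKM, against 1.02 to 20.2 FPKM with a median of 2.59 FPKM. The pair shares 826 transcript bases at 95.6% identity, and the summed level of 9.93 and 6.45 CPM was within 2.97 to 51.7 with a median of 7.06. Irf3, which encodes a transcription factor that induces type I interferon (chromosome 7), was below the range at 6.75 and 7.10 FPKM against 7.16 to 29.4 FPKM with a median of 20.2 FPKM, but not in TPM. Of 47 tested interferon-stimulated genes, 12 (25.5%) were higher and 1 (2.13%) lower, with a median log2 ratio of 0.24. Oasl2 was at 3.31 and 2.39 FPKM against 0.22 to 5.18 FPKM (1.80 ± 0.21; adjusted p = 3.91e-07). Ifi27l2a was at 25.7 and 18.4 FPKM against a median of 5.01 FPKM (adjusted p = 1.02e-06). With only 1 IL-219 mouse, 7 or 10 of the list were higher.

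Genes of antigen presentation were higher in part. Of 24 tested MHC class I and class II genes, 9 (37.5%) were higher and 1 (4.17%) lower, with a median log2 ratio of 0.37, and 4 were higher with either IL-219 mouse alone. H2-Ea-ps, the class II alpha E chain locus (chromosome 17), was above the range at 59.1 and 43.5 FPKM, against 0 to 31.6 FPKM with a median of 3.97 FPKM. Its partner H2-Eb1 was at 51.1 and 41.6 FPKM against 0.04 to 162 FPKM with a median of 5.50 FPKM (3.26 ± 0.44; adjusted p = 2.98e-06). H2-Aa and the invariant chain gene Cd74 were at 44.5 and 37.0 FPKM and at 95.9 and 77.1 FPKM, against medians of 10.3 and 22.4 FPKM (adjusted p = 0.00796 and 0.0109). H2-T10, a class I gene that is 97.2% identical to H2-T22, was at 1.61 and 1.43 FPKM against a median of 8.82 FPKM and was not called. The split of fragments between these and the other class I genes is uncertain.

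Markers of Kupffer cells, sinusoidal endothelium and stellate cells had calls in the higher direction, as the MHC and interferon-stimulated lists did. Of 13 Kupffer cell and macrophage markers, 7 (53.8%) were higher, among them Clec4f at 49.2 and 41.4 FPKM against a median of 19.9 FPKM and Csf1r at 12.6 and 9.27 FPKM against a median of 4.48 FPKM. With only 1 IL-219 mouse in the fit, 0 or 2 were higher. The summed level of the list was 276.6 and 218.8 FPKM, inside 30.3 to 852 FPKM with a median of 125 FPKM. Sinusoidal endothelial markers were higher in 6 of 9 (66.7%), with Kdr at 6.31 and 5.76 FPKM against a median of 3.52 FPKM, a summed level of 84.5 and 81.5 FPKM against 21.1 to 106 FPKM, and 2 or 1 calls with a single IL-219 mouse. Stellate cell and fibroblast markers were higher in 3 of 10 (30.0%), with Dcn at 89.9 and 99.2 FPKM against a median of 53.7 FPKM and a summed level of 171 and 185 FPKM against 30.4 to 199 FPKM, and 1 or 0 calls with 1 IL-219 mouse. Of 14 hepatocyte markers, 0 were higher and 2 (14.3%) lower, and the summed level of 80200 and 82200 FPKM was inside 42200 to 109000 FPKM. The part of these markers in the higher MHC and interferon-stimulated genes was not tested. In whole liver, a difference in the number of cells of a type and a difference in RNA per cell cannot be told apart.

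Lymphocyte and neutrophil markers gave 0 calls among 8 tested by edgeR's mouse-level test, with a summed level of 8.99 and 8.05 FPKM against 1.60 to 152 FPKM. Erythroid markers summed to 503 and 584 FPKM against 446 to 4530 FPKM, with 1 of 6 lower. Cholangiocyte markers summed to 11.2 and 12.8 FPKM against 6.93 to 209 FPKM, with 1 of 4 lower, and pancreas and gut markers to 138 and 119 FPKM against 42.7 to 729 FPKM, with 1 of 10 lower. None of the erythroid, cholangiocyte, pancreas and gut calls was made with 1 IL-219 mouse in the fit. The acinar genes Prss1, Prss2, Pnlip, Cpa1 and Ctrb1 were listed at 0 in both IL-219 mice.

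**Figure D5:**
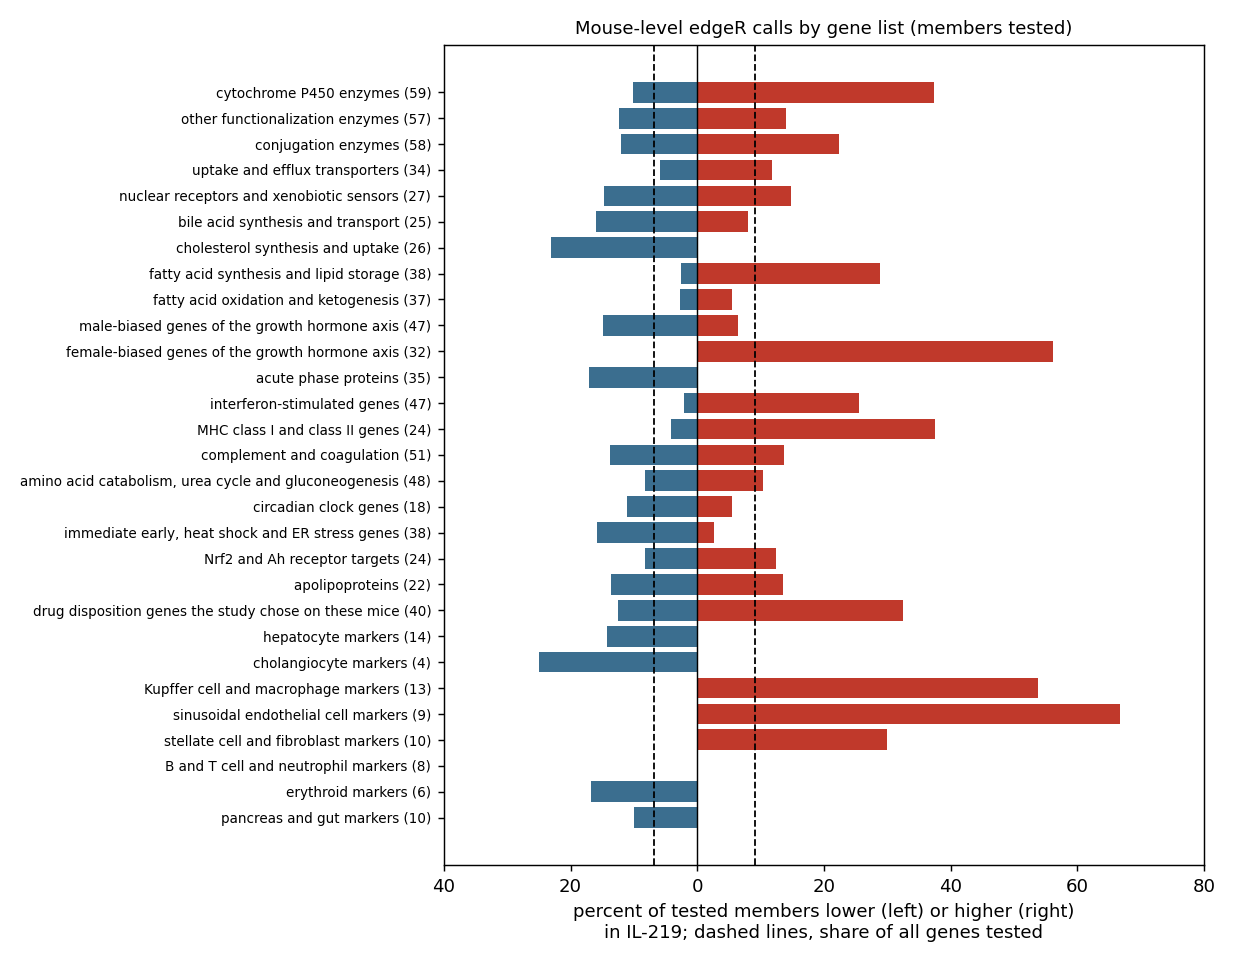
Percent of the tested members of each gene list (number in parentheses) that edgeR's mouse-level test called higher (red, right) or lower (blue, left) in IL-219. Dashed lines mark the 9.11% higher and 6.85% lower of all 11284 genes; the female-biased list reaches 56.2% and the sinusoidal endothelial list 66.7%.

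Nuclear receptors and xenobiotic sensors showed calls in both directions, with 4 of 27 (14.8%) higher and 4 (14.8%) lower, or 0 to 1 and 1 to 2 with 1 IL-219 mouse. Pparg, a lipid-sensing receptor gene, was at 0.9 and 0.36 FPKM against a median of 2.70 FPKM (-1.85 ± 0.42; adjusted p = 0.00298). Of 24 targets of Nrf2 and of the Ah receptor, 3 (12.5%) were higher and 2 (8.33%) lower, or 1 to 2 and 0 with 1 IL-219 mouse, and Osgin1, an oxidative stress gene, was at 23.7 and 25.1 FPKM against a median of 72.1 FPKM (-1.73 ± 0.45; adjusted p = 0.00848).

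The remaining genes above the range by the largest ratios were mostly low in liver. Myom3, a muscle sarcomere gene, was at 7.56 and 6 FPKM against a median of 0.17 and a highest value of 3.27 FPKM. Gm5062, near the Cyp2d cluster, was at 19.6 and 18.8 FPKM against 1.15 to 10.2 FPKM. The lower IL-219 mouse exceeded the next mouse by factors of 1.72 and 1.81 in Myom3 and Gm5062 after adding 0.5 FPKM. Serpinb8, a protease inhibitor gene, was at 7.99 and 7.24 FPKM against a highest value of 6.92 FPKM, and Corin, which encodes a natriuretic peptide convertase, at 3.26 and 3.39 FPKM against 3.24 FPKM. Sparcl1, a matrix protein gene, was at 5.41 and 5.64 FPKM against 3.35 FPKM. ENSMUSG00000093610, for which the annotation used here has no entry, was at 16.0 and 12.8 FPKM against a highest value of 4.73 FPKM. Among the more abundant genes above the range, App, the amyloid precursor protein gene, was at 26.7 and 27.5 FPKM against 4.60 to 26.1 FPKM. Sel1l and Edem1, both of the degradation of misfolded endoplasmic reticulum proteins, were at 29.9 and 29.4 FPKM against a highest value of 29.4 FPKM and at 35.4 and 36.5 FPKM against 34.5 FPKM. App, Sel1l, Edem1 and Corin were inside the range in TMM-scaled counts, and Serpinb8 in TPM.

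Below the range, Gcat, a threonine catabolism gene, was at 7.78 and 7.28 FPKM against 9.45 to 37.6 FPKM with a median of 27.5 FPKM. Tm4sf1, a membrane protein gene of endothelium, was at 0.35 and 0.08 FPKM against 0.9 to 6.85 FPKM, with a factor of 1.65 between the nearest mice after adding 0.5 FPKM. Scand1 was at 4.67 and 2.45 FPKM against 4.98 to 33.3 FPKM, and Rpusd3, a mitochondrial RNA modification gene, at 4.84 and 3.07 FPKM against 5.26 to 15.8 FPKM. Wnt5b, a signalling ligand gene, was at 0.07 FPKM in both mice against 0.08 to 3.38 FPKM. Smyd1, a muscle methyltransferase gene, was at 0.21 and 0.16 FPKM against 0.22 to 7 FPKM, Myh10, a non-muscle myosin gene, at 0.87 and 0.93 FPKM against 0.95 to 5.08 FPKM, and 2210411K11Rik at 1.49 and 1.24 FPKM against 1.64 to 7.42 FPKM. Hint2, a mitochondrial hydrolase gene, was at 41.5 and 36.4 FPKM against 44.0 to 128 FPKM, and the antioxidant gene Prdx5 at 128 in both mice against 137 to 254.5 FPKM. Smyd1, Myh10 and Prdx5 were inside the range in TPM and in TMM-scaled counts, and Scand1 and Wnt5b in TPM.

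Genes outside the range were spread over the genome. Chromosome 6 held the highest share, 17 of 569 tested genes (2.99%), followed by chromosome 16 with 7 of 341 (2.05%), and chromosome 13 held 0 of 405. Of 105 genes with a position, 27 had another such gene within 1000000 bases, in 11 groups. The group with 4 genes lay on chromosome 7 from 51639472 to 52715254 and held Syt3 above and Fuz, Irf3 and Ftl1 below, among 39 tested genes. On chromosome 15 from 82169389 to 82624675, 1500032L24Rik was below and Gm5062 and Cyp2d26 above. The mouse-level test called 8 of 13 tested genes there higher, against 9.11% of all genes. These counts were not tested against chance, and neighbouring genes share a haplotype.

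Isoform shares rarely left the range by much. Of 29803 isoforms of 4967 genes with an FPKM of at least 2 in every mouse, 4 (0.0134%) were at least 5 percentage points above all other mice in both IL-219 mice and 1 (0.00336%) was below. Zdhhc7, a palmitoyltransferase gene, held both a lower isoform (ENSMUST00000034280) at 65.4% and 68.2% against 75.9% to 100% and a higher one (ENSMUST00000150444) at 34.6% and 31.8% against 0% to 24.1%, from 223 and 249 fragments of the gene. Prrc2a gave 64.8% and 78.25% for ENSMUST00000171992 against 14.5% to 57.7%. Dyrk1a, a protein kinase gene, gave 66.1% and 66.5% for ENSMUST00000122284 against 23.9% to 60%. Mgll, the monoacylglycerol lipase gene, gave 10.2% and 9.51% for ENSMUST00000113580 against 0% to 3.93%, from 4140 and 3580 fragments. None of these 4 genes was outside the range in total expression.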

How the data were processed

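Livers of 55 male CC mice of 29 lines were analysed, with mice assigned to lines by their labels. The authors quantified stranded paired-end reads on mm9 with the Ensembl 67 annotation using Bowtie 2 and RSEM 1.2.18 with default parameters. The deposited expected counts are fragments estimated per gene, shared out where they match several genes. Strand was not used under these defaults, so overlapping antisense genes cannot be told apart. The deposited TPM and FPKM are scaled by RSEM for length and depth. The deposited isoform shares are in percent of a gene. Positions, transcripts and gene types came from GENCODE M1 (Ensembl 65, same build).

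Genes needed a maximum FPKM of at least 2, and log2 ratios used FPKM + 0.5. Rounded expected counts were tested with edgeR 4.0.16 (TMM, quasi-likelihood) on line sums, and on mice with the contrast of IL-219 against the mean of the other lines. DESeq2 1.42.0 and limma 3.58.1 (voom) were alternatives (R 4.3.3). P-values were adjusted by Benjamini-Hochberg over all genes tested, with a threshold of 0.05, and rest on the spread between these samples. Precision is limited by 2 IL-219 mice and by 20.5 to 34 M fragments per mouse. Near-identical copies were found with blastn at 95% identity over 200 bases. On simulated data both edgeR tests recovered most large set changes. With spread between lines added, the line-level test missed small ones, and the mouse-level test also called many genes without a set change. The simulation for the range rule placed the changed genes outside all other mice, so their recovery was fixed in advance. No labels name a batch.

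The line and the gene lists were chosen with earlier results of these data known. Genes named are the 15 above and 15 below the range with the largest ratios, range genes on a list, and the 2 members of each list of liver functions with the largest ratios; other genes named were chosen after their values were seen. A few genes that this rule selects are not reported here but remain in the counts. Removal of 1 IL-785 mouse, sums over copies, and alternatives for list counts were added after seeing the data.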

Additional observations from a re-analysis of the deposited data

How the results depend on the processing

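The count of 0 genes from edgeR among lines became 82 with DESeq2, 95 with limma voom, 4 without an expression filter, 1 with age and weight as covariates and 3 over lines with 2 or 3 mice, and between 0 and 2 without either IL-219 mouse. The count of 1801 from the mouse-level test fell to between 541 and 565 when either IL-219 mouse was left out, where the lone mouse is assumed to vary as line mates elsewhere. The other alternatives gave 1785 to 2051. The 106 genes outside the range became 25 and 9 with margins of 1.2 and 1.5. Without one IL-219 mouse they became 200 or 241, since fewer mice had to pass, and without any one other line between 106 and 132. The 5 isoforms outside the range became 124 without a margin, 0 at 10 percentage points, 2 for genes of at least 5 FPKM and 10 without IL-1052 and IL-2750, and 69 to 102 with 1 IL-219 mouse. With another pseudocount, TPM or 1 IL-219 mouse, no log2 ratio of a gene named here changed sign. The cause of these changes was not tested, except where fewer mice or a stricter rule makes them. No paired analysis was possible because the labels give no replicate numbers shared between lines.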
